A study of Mus musculus with 2 samples.

Results

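The genes described here are 10 targets of the transcriptional co-activators YAP and TAZ, followed across the cell types of the mouse kidney after rhabdomyolysis, with and without the compound CA3. They are Cyr61, Ctgf, Wisp1, Amotl2, Amotl1, Ankrd1, Nuak2, Crim1, Axl and Igfbp3, taken by symbol from the 31058 features counted in each library. CA3 is a compound known to inhibit transcription by YAP with TEAD factors, and rhabdomyolysis is the breakdown of skeletal muscle, which releases myoglobin that injures kidney tubules. Both groups were cells of the whole kidney of female C57Bl/6 mice aged 9 weeks, with the genotype Pax8.rtTA;TetO.Cre;R26.FUCCI2aR. One group had rhabdomyolysis and CA3, and the other had rhabdomyolysis and vehicle. In that genotype the Pax8 promoter drives the doxycycline-dependent activator rtTA, and through it Cre, in tubule cells, and Cre switches on the FUCCI2aR cell-cycle reporter at the Rosa26 locus. The labels state neither the CA3 dose, nor the time after injury, nor how many animals gave each library, and an uninjured group was not analysed here.

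YAP and TAZ are held in the cytoplasm by the Hippo kinase cascade and, when released, enter the nucleus and bind TEAD factors on DNA. In the kidney they are known for their activity in injured tubules, where they are linked to repair and to fibrosis, and many of their targets are also made by endothelial cells and pericytes. Immediate early factors of the Jun and Fos families often share enhancers with TEAD, so several of these targets are also fast stress-response genes.

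Each group was 1 library, so the comparison of CA3 with vehicle had no replicate check and no test was made. The CA3 library held 17013222 UMIs (unique molecular identifiers, each standing for 1 captured RNA molecule) in 1724 barcodes and the vehicle library 19592239 in 1967. After filtering, 1491 CA3 and 1766 vehicle barcodes remained, and 1 barcode occurred in both libraries. Levels are given as CPM, the UMIs of a gene per 1000000 UMIs left once mitochondrially encoded genes are taken out, and since 3′ counting takes 1 tag per molecule they need no correction for gene length. Intervals in parentheses are 95% intervals that cover counting error only. Proximal tubule-like cells numbered 1141 in CA3 and 1424 in vehicle and gave 74.0% and 72.9% of these UMIs. Their marker Slc34a1, the sodium-phosphate cotransporter, had UMIs in 65.9% to 100% of the cells of each of their 10 clusters. The other classes were small, with at most 90 cells in a library, and 14 classes had at least 20 cells over both libraries.

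The promoters of the members are shown because TEAD factors bind the letters GGAATG. RefSeq promoters on GRCm38.p6, which run from 250 bases before to 50 bases after the start, were found for 7 of the 10 members, Cyr61, Amotl2, Amotl1, Ankrd1, Crim1, Axl and Igfbp3. GGAATG, on either strand, stood in 5 of these 7 promoters, all but those of Amotl1 and Igfbp3, and in 14.7% of all 32851 promoters in the table. The Amotl1 promoter, chr9:14614951-14615250, lies inside its minus-strand gene model, which ends at 14645056. That of Amotl2 lies inside its plus-strand model, which begins at 102716672. Bases before these outer ends were not searched. The letters TGANTCA, to which Jun and Fos factors bind, stood in 0 of the 7 and in 7.81% of all promoters, again on either strand. The 3 promoters below belong to members with different patterns over the cells. Cyr61 was made mainly by the proximal tubule-like cells, Amotl2 by many classes, and Ankrd1 by few cells, none of them proximal tubule-like. Each is written 5′ to 3′ on the strand of its gene, with GGAATG, or CATTCC where it lies on the other strand, in capitals. A match describes the letters and is not evidence of a bound site.

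Cyr61, chr3:145649936-145650235, minus strand: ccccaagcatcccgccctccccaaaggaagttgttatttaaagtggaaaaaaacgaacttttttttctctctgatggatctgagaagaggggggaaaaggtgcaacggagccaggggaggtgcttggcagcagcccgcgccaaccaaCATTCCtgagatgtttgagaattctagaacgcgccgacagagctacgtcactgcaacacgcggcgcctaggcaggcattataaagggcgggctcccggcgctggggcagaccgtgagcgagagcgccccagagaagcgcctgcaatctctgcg

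Amotl2, chr9:102717554-102717853, plus strand: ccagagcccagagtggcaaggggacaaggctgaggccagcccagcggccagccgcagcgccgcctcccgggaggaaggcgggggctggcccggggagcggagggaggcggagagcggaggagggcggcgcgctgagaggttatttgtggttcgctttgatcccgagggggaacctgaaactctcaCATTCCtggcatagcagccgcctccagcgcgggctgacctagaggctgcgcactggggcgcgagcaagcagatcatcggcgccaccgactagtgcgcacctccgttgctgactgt

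Ankrd1, chr19:36119795-36120094, minus strand: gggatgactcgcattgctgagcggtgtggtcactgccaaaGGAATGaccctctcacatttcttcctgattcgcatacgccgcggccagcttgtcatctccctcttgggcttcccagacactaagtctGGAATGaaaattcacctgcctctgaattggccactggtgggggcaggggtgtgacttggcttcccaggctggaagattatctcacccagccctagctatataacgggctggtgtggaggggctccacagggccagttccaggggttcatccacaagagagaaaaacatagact

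In Cyr61 the match began 103 bases before the start, in Amotl2 65 bases before it, and in Ankrd1 there were 2 matches, 210 and 123 bases before it. The 3′ ends that give the reads were almost free of copies elsewhere. At most 0.685% of the 31-base words in the last 500 bases of a member were found in another gene. Ctgf, Amotl1 and Crim1 overlap other gene models, and whether strand was used in the counting is not stated, so reads in those overlaps are uncertain.

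Over all members, 8 of 10 had their highest level outside the proximal tubule-like class, among the 14 classes and with both libraries summed. Only 1 of the 14 classes is proximal tubule-like, and the count has no share of all genes beside it, so nothing particular to the members can be read from it. It includes Nuak2, whose order over the classes is not settled by the counts. Cyr61 (CCN1), a secreted matrix protein that binds integrins, was one exception among the 10. Its gene lies at chr3:145646976-145649981 on mm10. In proximal tubule-like cells it stood at 245 CPM in CA3 (2219 UMIs) and 291 CPM in vehicle (3063 UMIs), and this class held 91.9% of its UMIs. The level over both libraries was 269 CPM (262 to 277), and that of Ehd3-led endothelial-like cells, 209 CPM (172 to 250), came next. The order was that of vehicle, since the Ehd3-led cells had 312 CPM in CA3 (48 UMIs), above the proximal tubule-like level there, and 169 CPM in vehicle (68 UMIs). Cyr61 had a UMI in 25.7% of proximal tubule-like cells in CA3 and 23.3% in vehicle, at median depths of 7938 and 7220 UMIs. Lymphocytes are not known to make it, and T or NK-like cells had shares of 3.33% in CA3 and 2.27% in vehicle, at depths of 5979 and 4994, so the proximal tubule-like share stood far above this background. With every cell thinned to 2000 UMIs, the proximal tubule-like shares were 14.6% in CA3 and 13.8% in vehicle.

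Wisp1 (CCN4), a secreted relative of Cyr61 that is known as a Wnt target, was the other exception. Its level was low, at 9.26 CPM in CA3 (84 UMIs) and 7.41 CPM in vehicle (78 UMIs) in proximal tubule-like cells, which held 93.6% of its UMIs. With so few UMIs elsewhere, its order over the other classes is not settled by the counts. Nuak2, a kinase of the AMPK family that feeds back on YAP, was made at the same level by proximal tubule-like cells, 96.5 CPM (92.2 to 101), and by the Vcam1/C3-led cluster, 98.7 CPM (77.1 to 124). These intervals overlapped, so the order of the classes is not settled by the counts. T or NK-like cells had no Nuak2 UMI in either library, while 24.5% of proximal tubule-like cells in CA3 and 24.6% in vehicle had at least 1. The Vcam1/C3-led cluster, 42 CA3 and 38 vehicle cells, was set apart by genes that injured tubule cells are known to express, and its summed proximal tubule markers fell short of the 20000 CPM asked of the proximal tubule-like class.

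Amotl2, a scaffold protein of cell junctions that binds YAP and holds it out of the nucleus, was spread over most epithelial classes and the endothelium. Ehd3-led endothelial-like cells stood highest among the 14 classes at 140.2 CPM (111 to 175), and principal-like cells had 92.6 CPM (73.5 to 115), within its counting error. That rank was again that of vehicle, for the Ehd3-led cells had 58.5 CPM in CA3 (9 UMIs) and 172 CPM in vehicle (69 UMIs), while principal-like cells had 93.5 CPM in CA3 and 92.1 CPM in vehicle. The few thin limb-like cells, 3 in CA3 and 16 in vehicle, had far more, with 1087 CPM in CA3 and 451 CPM in vehicle. That excess was mostly 1 barcode per library, with 129 Amotl2 UMIs of 115815 in CA3 and 82 of 112355 in vehicle. Both barcodes were rich in the thin limb markers Bst1 (144 UMIs in CA3 and 121 in vehicle) and Aqp1 (317 and 314). The 4 thin limb markers summed to 491 UMIs in the CA3 barcode and 440 in the vehicle one. The 12 proximal tubule markers summed to 562 and 193 UMIs there, so in CA3 they exceeded the thin limb sum. Both were the deepest barcodes of their libraries, and whether they held more than 1 cell was not tested.

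Crim1, a transmembrane protein that binds BMPs and is known from podocytes and vessels, had its highest level in the Plvap/Sox17 endothelial-like cluster, 310.2 CPM (247 to 385). Intercalated-like cells at 189.9 CPM (153 to 233) and Ehd3-led endothelial-like cells at 165 CPM did not differ beyond their intervals. The 9 podocyte-like cells had 29 Crim1 UMIs, or 426 CPM. In proximal tubule-like cells Crim1 had a UMI in 24.6% of cells in CA3 and 25.6% in vehicle, and in T or NK-like cells in 25.6% and 20.5%. The proximal tubule-like share was thus not above that of T or NK-like cells. These may not be a background for Crim1, since it was uneven among them, from 11.6 CPM (2 UMIs) in the Il17a-led cluster to 75.1 CPM in the Ccl1-led one. The Lyz2/S100a9-led cluster had 20.8 CPM (10 to 38.2). That was below both T or NK-like cells at 54.9 CPM (39.6 to 74.2) and proximal tubule-like cells at 48.5 CPM (45.4 to 51.6). The proximal tubule-like level was thus above the Lyz2/S100a9-led cluster but not above T or NK-like cells. Which of these shows the background was not tested.

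The endothelial-like cells formed 2 clusters. One was led by Ehd3, a marker of glomerular capillaries, with 18 CA3 and 23 vehicle cells. The other, named here for Plvap and Sox17, had 20 CA3 and 15 vehicle cells. Its leading gene was Rgs5, and its 10 leading genes also held Acta2, both pericyte markers. Over both clusters Rgs5 had 2 UMIs in CA3 and 224 in vehicle, and Acta2 0 in CA3 and 72 in vehicle. All 9 endothelial markers were detected in each cluster. In the Ehd3-led cluster they summed to 13773 CPM, beside 387 CPM for the pericyte markers. In the Plvap/Sox17 cluster they summed to 8723 CPM, beside 1838 CPM for the pericyte markers. Markers of other cell types were present too. In the Ehd3-led cluster thick ascending limb markers summed to 6890 CPM, proximal tubule markers to 3704 CPM and podocyte markers to 1027 CPM. In the Plvap/Sox17 cluster thin limb markers summed to 1305 CPM and podocyte markers to 961 CPM. The 10 leading genes of the Ehd3-led cluster also held Sfrp2, Ptn, Itga8 and Adamts5, which are not endothelial markers. Sfrp2 had 0 UMIs in CA3 and 386 in vehicle, 382 of them in 3 barcodes, and Itga8 0 in CA3 and 225 in vehicle, 221 of them in the same 3. Ehd3 and the endothelial receptor Kdr, by contrast, each had UMIs in 17 of the 18 CA3 cells, and in 21 and 23 of the 23 vehicle cells. Comparisons of the endothelial-like cells are therefore given with and without the barcodes rich in pericyte markers. Neither set of cells was filtered for tubule or podocyte markers. Igfbp3, a secreted carrier of insulin-like growth factors, was made mostly by endothelial-like cells in both libraries. The Plvap/Sox17 cluster had 1709.8 CPM in CA3 (204 UMIs, 92 of them in 1 cell) and 365 CPM in vehicle (53 UMIs). The Ehd3-led cluster had 97.5 CPM in CA3 and 127 CPM in vehicle (51 UMIs). The Plvap/Sox17 cluster held 71.4% of all Igfbp3 UMIs, 83.6% in CA3 and 45.7% in vehicle, where the Ehd3-led cluster held 44.0%. Amotl1, the junction scaffold related to Amotl2, was in both clusters and in both libraries. It stood at 130.0 CPM in CA3 and 564 CPM in vehicle in the Ehd3-led cluster, and at 218 CPM in CA3 and 352 CPM in vehicle in the Plvap/Sox17 cluster. In proximal tubule-like cells it had 6 UMIs in CA3 and 10 in vehicle. Ctgf (CCN2), a secreted matrix protein linked to fibrosis, whose gene lies at chr10:24595442-24598683, had 26.0 CPM in CA3 (4 UMIs) and 1206 CPM in vehicle (485 UMIs) in the Ehd3-led cluster. Of the 509 vehicle UMIs in the endothelial-like cells, 488 lay in 6 barcodes that also carried pericyte markers, and 18 of the other 21 in 1 cell, so these values do not place Ctgf in endothelial cells as such. In CA3 the cell richest in Ctgf, with 17 UMIs, was in the Vcam1/C3-led cluster.

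Axl, a receptor tyrosine kinase that helps phagocytes clear dying cells, was the myeloid member. Macrophage-like cells had 208 CPM in CA3 and 205 CPM in vehicle, at 14 UMIs each, and the Lyz2/S100a9-led cluster had 203 CPM in CA3 and 175 CPM in vehicle. The ratios of CA3 to vehicle were 1.02 and 1.16 (0.753 to 1.82 in the Lyz2/S100a9-led cluster), with no difference detectable at this depth. Ankrd1, a muscle ankyrin repeat protein known as a strong YAP target, had no UMI in any of the proximal tubule-like cells. A count of 0 allows up to 0.331 CPM there in CA3 and 0.285 CPM in vehicle. Thin limb-like cells held 50.6% of its UMIs over both libraries, but 93.5% in CA3 (29 UMIs, all in 1 cell) and 27.6% in vehicle (16 UMIs). That CA3 cell was the deep barcode described for Amotl2, with more proximal tubule than thin limb marker UMIs. In vehicle thick ascending limb-like cells held 34.5% (20 UMIs, 19 of them in 1 barcode).

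**Figure D1:**
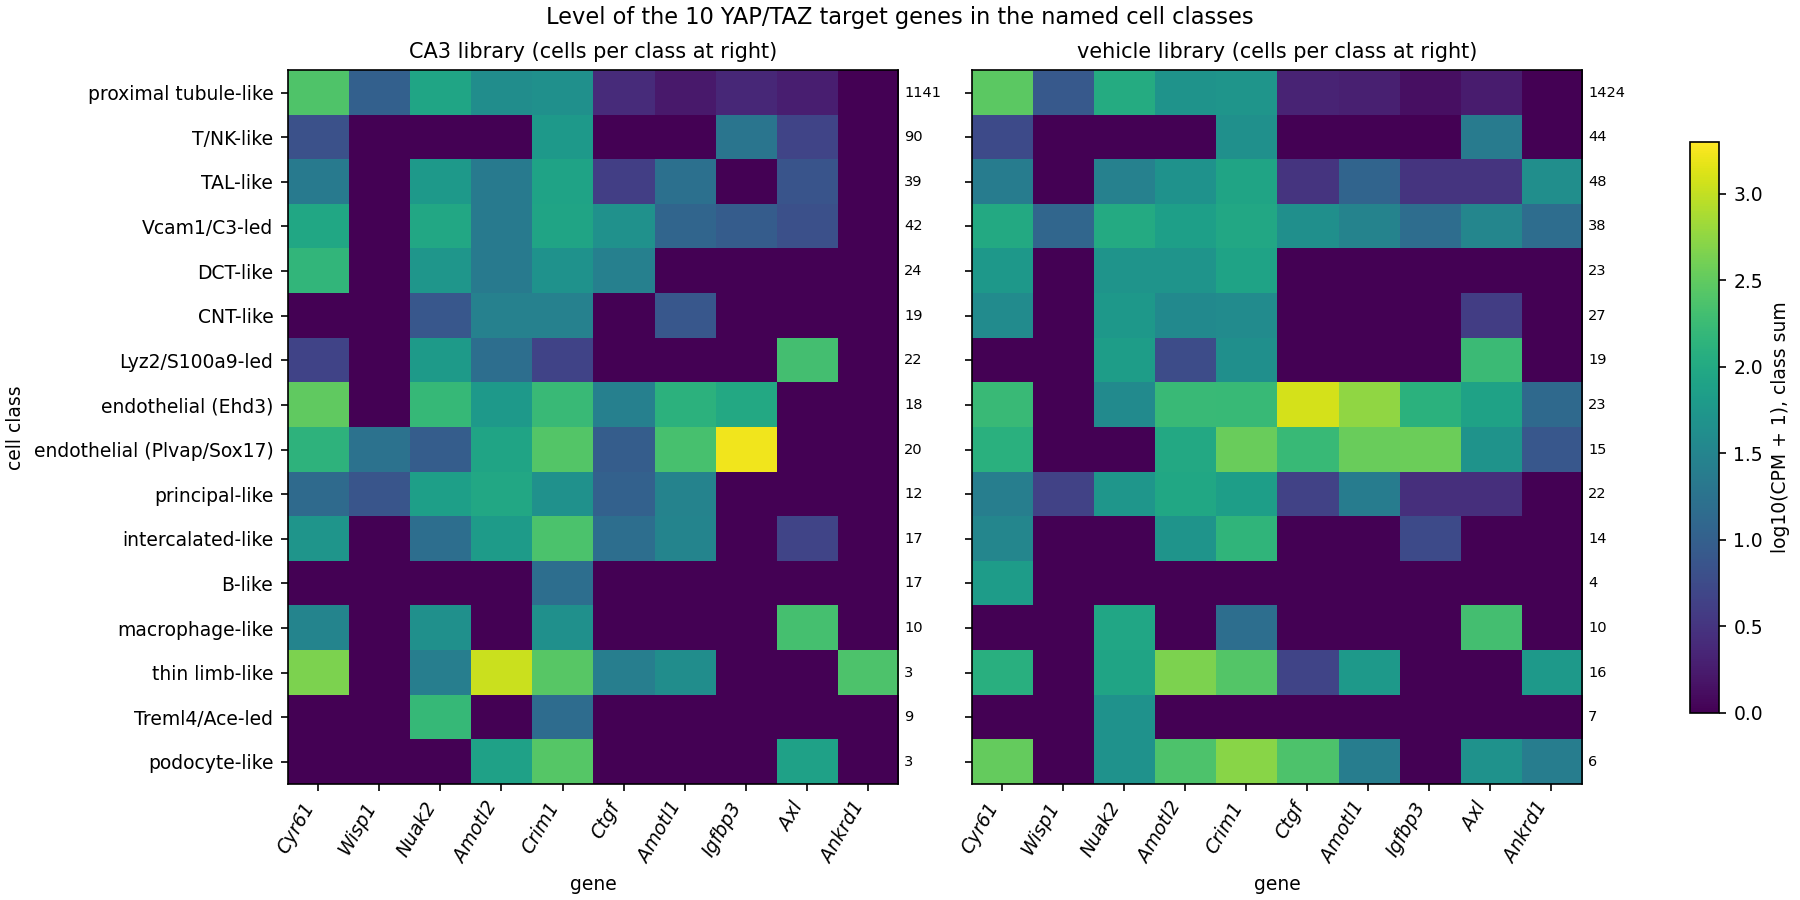
Level of each gene (columns) in each of the 16 named cell classes (rows) as log10(CPM + 1) on a colour scale, in the CA3 library (left) and the vehicle library (right), with the number of cells of each class at the right of its row; TAL, DCT and CNT stand for thick ascending limb, distal convoluted tubule and connecting tubule. Ctgf in Ehd3-led endothelial-like cells is dark in CA3, at 26.0 CPM, and bright in vehicle, at 1206 CPM, and Igfbp3 is brightest in the Plvap/Sox17 cluster of CA3, at 1709.8 CPM.

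The factors that act on these targets were themselves unevenly spread. Wwtr1, which encodes TAZ, stood at 218 CPM in Ehd3-led and 140.0 CPM in Plvap/Sox17 endothelial-like cells, against 59.9 CPM in proximal tubule-like cells and 3.9 CPM in T or NK-like cells, over both libraries. Yap1 ran from 66.5 and 75.7 CPM in those endothelial-like clusters to 20.7 CPM in proximal tubule-like and 1.3 CPM in T or NK-like cells. Tead1, the TEAD factor with most UMIs, was at 95.3 CPM in Ehd3-led endothelial-like, 82.3 CPM in proximal tubule-like and at 0 UMIs in T or NK-like, B-like and macrophage-like cells. The macrophage-like cells were thus high in Axl with no UMI of Tead1 or Wwtr1, which in these 20 cells allows up to 22.1 CPM of each, and in B-like cells a count of 0 allows up to 35.3 CPM. In proximal tubule-like cells Yap1 had 20.2 CPM in CA3 and 21.1 CPM in vehicle (ratio 0.956, 0.782 to 1.17), and Wwtr1 had 63.9 CPM in CA3 and 56.5 CPM in vehicle (ratio 1.13, 1.01 to 1.27).

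Several members were held by very few cells. Counting over all kept cells, 5 of the 10 members had at least 50% of their UMIs in 10 cells in CA3, and 5 in vehicle, Ankrd1, Ctgf, Igfbp3, Axl and Amotl1 in each. The same held for 9.45% of 12643 genes in CA3 and 11.1% of 13006 genes in vehicle with at least 20 UMIs. Ctgf had 59 UMIs in CA3, 47.5% of them in 3 cells, and 553 in vehicle, 87.2% of them in 3 cells. Ankrd1 had 93.5% of its 31 CA3 UMIs in 1 cell and 67.2% of its 58 vehicle UMIs in 3 cells. For Igfbp3, 1 cell held 37.7% of 244 UMIs in CA3 and 28.4% of 116 UMIs in vehicle, and 10 cells held 86.9% in CA3 and 83.6% in vehicle.

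Barcodes of more than 30000 UMIs numbered 39 in CA3 and 50 in vehicle and held 10.9% and 12.4% of all UMIs. They held 18.6% of Ctgf UMIs in CA3 and 90.1% in vehicle, 36.0% of Amotl1 UMIs in CA3 and 68.8% in vehicle, and 96.8% of Ankrd1 UMIs in CA3 and 82.8% in vehicle. Cyr61, Wisp1 and Nuak2 had between 6.05% and 8.44% of their UMIs there. Axl had 9.20% of its UMIs there in CA3 and 46.7% in vehicle, and Igfbp3 1.23% in CA3 and 6.90% in vehicle. Being held by few cells thus went with deep barcodes for Amotl1 and Ankrd1 in both libraries, for Ctgf and Axl in vehicle and for Igfbp3 in neither. The CA3 cell richest in Ctgf, with 17 of its UMIs, had a total of only 3809. Scrublet marked 3 CA3 and 1 vehicle barcodes as doublets, and the part of doublets in these values was not tested.

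**Figure D2:**
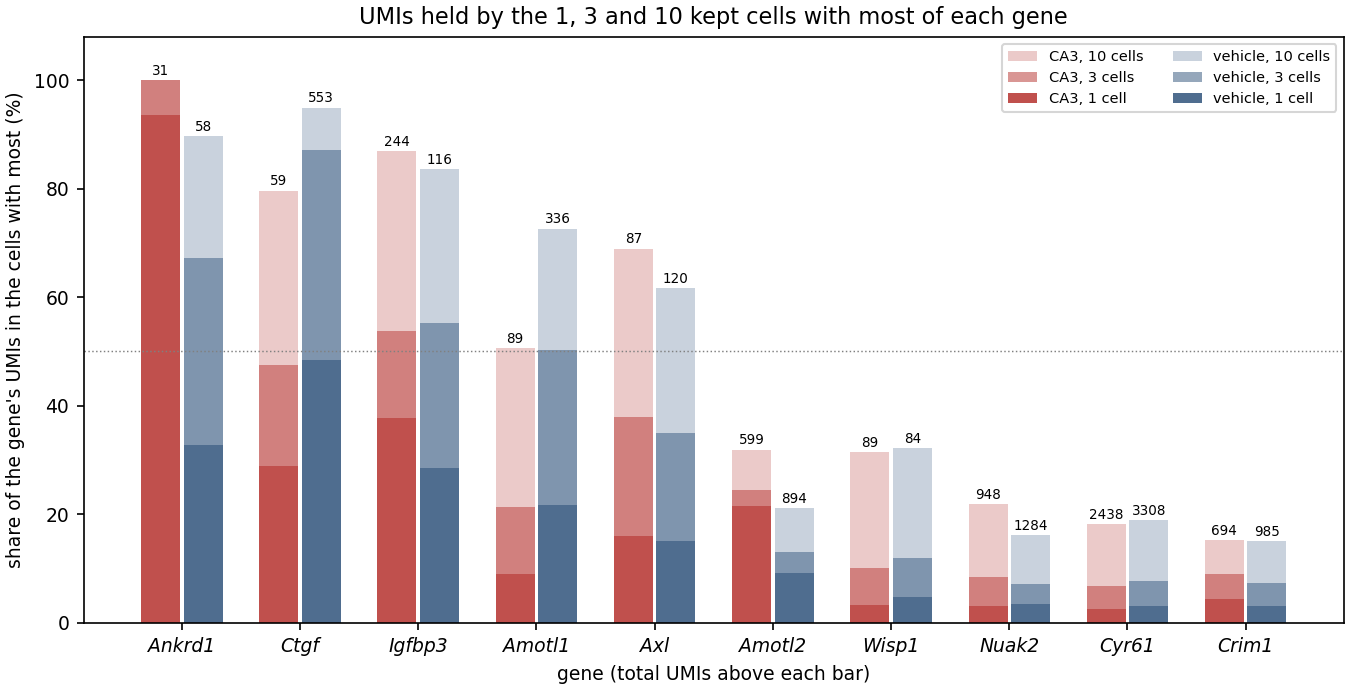
Share of the UMIs of each gene, in percent (vertical axis), that the 1, 3 and 10 kept cells with most of it hold (darkest to lightest shade) in CA3 (left bar of each pair) and vehicle (right bar), with total UMIs above each bar and a dotted line at 50%. In CA3 1 cell holds 93.5% of Ankrd1, and in vehicle 3 cells hold 87.2% of Ctgf.

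Cyr61 was also unevenly spread inside the proximal tubule-like class. It had UMIs in 293 of the 1141 cells in CA3 and 332 of 1424 in vehicle, 33.8% and 29.0% of the number that an even spread in proportion to depth would give, where the median gene reached 94.2% in each. A pair of proximal tubule-like clusters, led by Pdk4 and Osr2, held 12.9% of the cells of the class in CA3 and 14.1% in vehicle, and 20.8% and 23.1% of its UMIs outside mitochondrial genes, but 75.4% of its Cyr61 UMIs in CA3 and 84.9% in vehicle. Wisp1 followed with 82.1% in CA3 and 89.7% in vehicle, and Amotl2 with 58.0% in CA3 and 63.1% in vehicle. Nuak2 had 40.7% in CA3 and 42.9% in vehicle and Crim1 30% in CA3 and 28.2% in vehicle there, closer to the share of all UMIs. None of the 10 members was used in the clustering.

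These clusters were high in immediate early and stress genes, a list of 16 that took part in the clustering and so is a description of them. Its summed level was 18129.5 CPM in CA3 and 17913 CPM in vehicle there, against 1547 CPM in CA3 and 1346 CPM in vehicle in the other proximal tubule-like clusters. Jun was the highest member of the list at 6234 CPM in CA3 and 6268 CPM in vehicle, against 599 CPM in CA3 and 473 CPM in vehicle in the other clusters. Cells of this pair were also deeper, with a median of 14277 UMIs in CA3 and 12875 in vehicle against 7147 and 6558, and had less mitochondrial RNA, 11.3% in CA3 and 11.6% in vehicle against 21.2% and 19.8%. Depth, mitochondrial share and stress genes moved with Cyr61 here, and their part in its level was not tested. Across proximal tubule-like cells the Spearman correlation between Cyr61 and the list was 0.528 in the 1141 CA3 cells and 0.529 in the 1424 vehicle cells, as a description, since the cells of a library share its preparation and the 2 values share the depth of a cell.

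Proximal tubule-like cells of both libraries were also ordered by the share of their UMIs from the list and divided into 4 bins, equal over both libraries together, from the lowest share to the highest. The bins held 19.1%, 24.5%, 30.6% and 25.8% of the CA3 cells and 29.7%, 25.4%, 20.5% and 24.4% of the vehicle cells, so their makeup differed between the libraries. Over these bins Cyr61 stood at 26.7, 21.5, 48.9 and 559 CPM in CA3 and at 16.9, 19.9, 27.5 and 751 CPM in vehicle. Wisp1 had 81 of its 84 CA3 UMIs and 76 of its 78 vehicle UMIs in the highest bin. Amotl2 was nearly level over the lower bins, at 17.5, 19.3 and 18.5 CPM in CA3 and 17.8, 20.7 and 19.3 CPM in vehicle, and stood at 71.8 CPM in CA3 and 99.4 CPM in vehicle in the highest. Nuak2 was graded, with 27.5, 57.9, 58.6 and 140.0 CPM in CA3 and 46.5, 62.5, 109.8 and 162 CPM in vehicle. Crim1 spanned only 35.4 to 53.6 CPM in CA3 and 44.7 to 63.7 CPM in vehicle. Cyr61, Wisp1 and Amotl2 were thus carried by the cells richest in stress genes, Nuak2 less so.

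**Figure D3:**
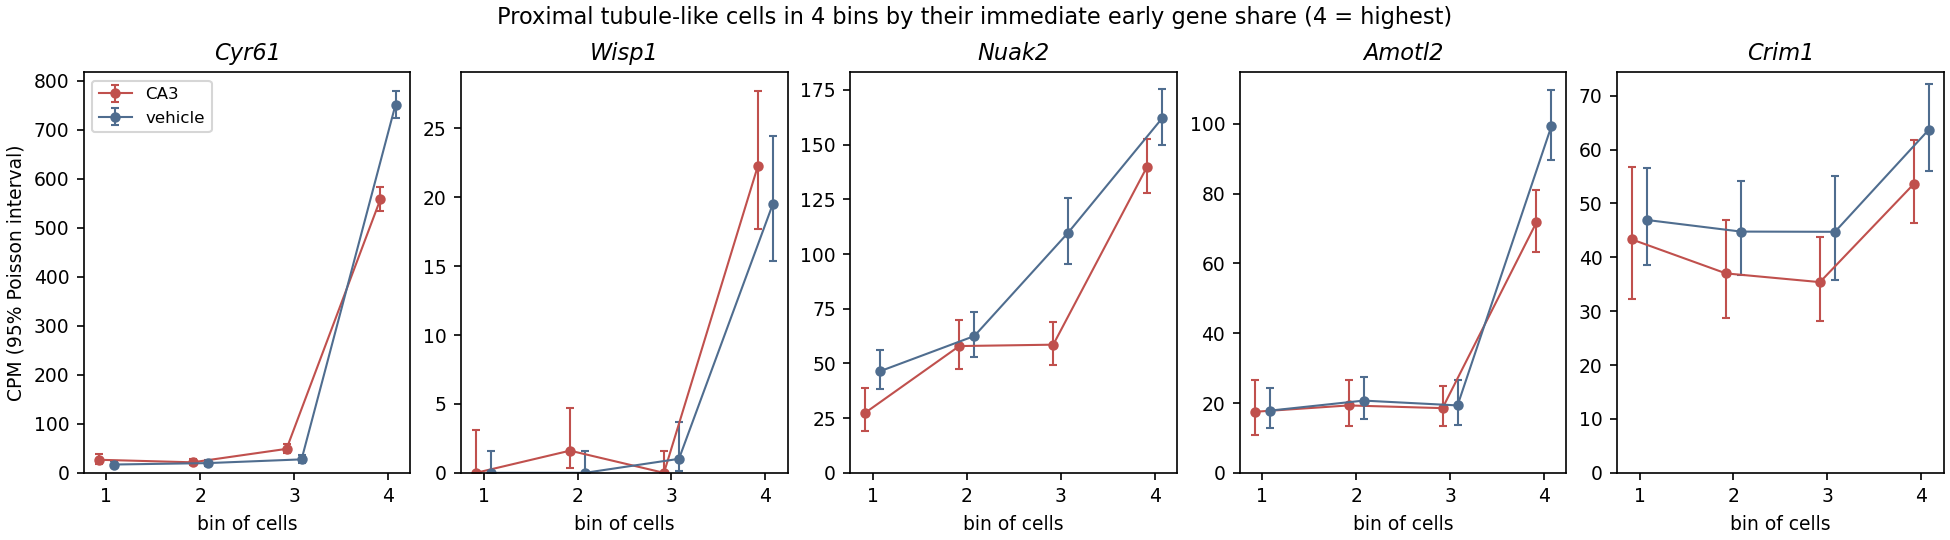
Level in CPM (vertical axis, a scale per gene) of Cyr61, Wisp1, Nuak2, Amotl2 and Crim1 in proximal tubule-like cells in 4 bins by their share of UMIs from 16 immediate early and stress genes (horizontal axis, bin 4 highest), with CA3 and vehicle shown separately and bars for 95% Poisson intervals. Cyr61 in the highest bin stands at 559 CPM in CA3 and 751 CPM in vehicle, and Crim1 spans only 35.4 to 63.7 CPM.

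CA3 was set against vehicle to ask whether targets of the factor it inhibits were lower in treated kidneys. In proximal tubule-like cells the differences were small. None of the 6 members with at least 20 UMIs there passed 1.5 times in either direction, where 7.47% of 11723 genes did. The ratio of CA3 to vehicle was 0.841 for Cyr61 (0.796 to 0.888), 0.831 for Nuak2 (0.757 to 0.911), 0.816 for Amotl2 (0.711 to 0.935) and 0.844 for Crim1 (0.740 to 0.962). Wisp1 at 1.25 (0.907 to 1.72) and Ctgf at 1.35 (0.581 to 3.20, from 14 and 12 UMIs) had intervals that include 1. The median log2 ratio of the 6 members was -0.25 and that of all genes 0.01.

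The Cyr61 ratio was not the same throughout the class. In the Pdk4-led and Osr2-led clusters Cyr61 had 887 CPM in CA3 and 1069.8 CPM in vehicle, a ratio of 0.829 (0.779 to 0.882). In the other proximal tubule-like clusters it had 75.8 CPM in CA3 and 57.2 CPM in vehicle, a ratio of 1.33 (1.17 to 1.5). The pair itself was divided. The Pdk4-led cluster had 888 CPM in CA3 and 1279 CPM in vehicle, a ratio of 0.694 (0.645 to 0.747), and the Osr2-led cluster 886 CPM in CA3 and 747 CPM in vehicle, a ratio of 1.19 (1.05 to 1.33). Of these sets of cells the Pdk4-led cluster was thus the one below 1. The stress gene list stood at 19374 CPM in CA3 and 20872 CPM in vehicle in the Pdk4-led cluster and at 15095 CPM in CA3 and 13355 CPM in vehicle in the Osr2-led cluster, and its part in the Cyr61 ratio was not tested. By bin of the stress genes the ratio was 1.78 (1.28 to 2.51) in bin 3 and 0.744 (0.703 to 0.787) in the highest, where the list itself stood at 11492 CPM in CA3 and 13113 CPM in vehicle. The bins differed for Nuak2 too, with its lowest ratio, 0.533 (0.428 to 0.663), in bin 3 and 0.864 (0.767 to 0.972) in the highest. In the other clusters Wisp1 had 15 UMIs in CA3 and 8 in vehicle, a ratio of 2.11 (0.841 to 5.75), and it was the only measured member past 1.5 times there, against 7.78% of genes. The Nuak2 ratio was below 1 in both groups of clusters, at 0.874 (0.756 to 1.01) in the pair and 0.838 (0.742 to 0.946) in the rest. So was that of Amotl2, at 0.832 (0.696 to 0.993) in the pair and 0.901 (0.723 to 1.12) in the rest. The intervals of Nuak2 in the pair and of Amotl2 in the rest include 1.

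Summed over all kept cells, 4 of 10 members passed 1.5 times, Ctgf, Amotl1 and Ankrd1 lower and Igfbp3 higher in CA3, where 13.9% of 13966 genes did. Ctgf had 4.81 CPM in CA3 and 38.3 CPM in vehicle, a ratio of 0.126 (0.094 to 0.165). Amotl1 stood at 7.25 CPM in CA3 and 23.3 CPM in vehicle (ratio 0.312, 0.244 to 0.395), Ankrd1 at 2.53 and 4.01 CPM (0.629, 0.393 to 0.990) and Igfbp3 at 19.9 and 8.03 CPM (2.48, 1.98 to 3.12). These sums move with the makeup of each library and with few cells. Without barcodes of more than 30000 UMIs, Ctgf had 48 UMIs in CA3 and 55 in vehicle and a ratio of 1.01 (0.671 to 1.52), so no difference beyond counting error remained without the deep barcodes. Amotl1 then stood at 0.628 and Igfbp3 at 2.58, and 1 member was lower and 1 higher of 9 measured, against 13.3% of genes. Axl changed side, from 0.854 (0.640 to 1.13) over all kept cells to 1.43 (1.01 to 2.02) without the deep barcodes.

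The 38 CA3 and 38 vehicle endothelial-like cells differed in the RNA of another cell type. The 8 pericyte markers Pdgfrb, Rgs5, Acta2, Tagln, Myh11, Des, Notch3 and Ren1 summed to 4 UMIs in CA3 (14.6 CPM) and 697 in vehicle (1273 CPM). In CA3 3 of the 8 were detected, with Pdgfrb, Acta2, Tagln, Des and Ren1 at 0, and in vehicle all 8. In vehicle 6 barcodes had at least 20 pericyte UMIs and held 689 of the 697, and no CA3 barcode did. Over all endothelial-like cells 4 members were lower and 2 higher past 1.5 times in CA3, of 8 measured, where 32.7% of 6828 genes passed in either direction. The same 6 barcodes held 488 of the 509 endothelial Ctgf UMIs, 184 of 278 for Amotl1 and 37 of 39 for Axl. Their median total was 33116 UMIs, against 6490 in the other vehicle cells of these clusters and 6090 in CA3.

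The vehicle barcode with most Ctgf had 268 of its UMIs in a total of 80258, with 747 UMIs of endothelial markers, 45 of Pdgfrb and 61 of Des. The next had 117 Ctgf UMIs of 30954, with 15 of Pdgfrb and 24 of Des, and the third 97 of 74014, with 20 of Pdgfrb and 22 of Des. The other 3 of the 6 had 3, 2 and 1 Ctgf UMIs, so not every barcode rich in pericyte markers was rich in Ctgf. The 6 were not alike in these markers. The 3 rich in Ctgf were in the Ehd3-led cluster and were those that held the 382 Sfrp2 and 221 Itga8 UMIs. They had 3, 4 and 2 Rgs5 UMIs of the 222 in the 6 barcodes, while the barcode with 3 Ctgf UMIs had 120. Endothelial and pericyte markers were thus read from the same barcodes, and whether each held 1 cell was not tested.

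**Figure D4:**
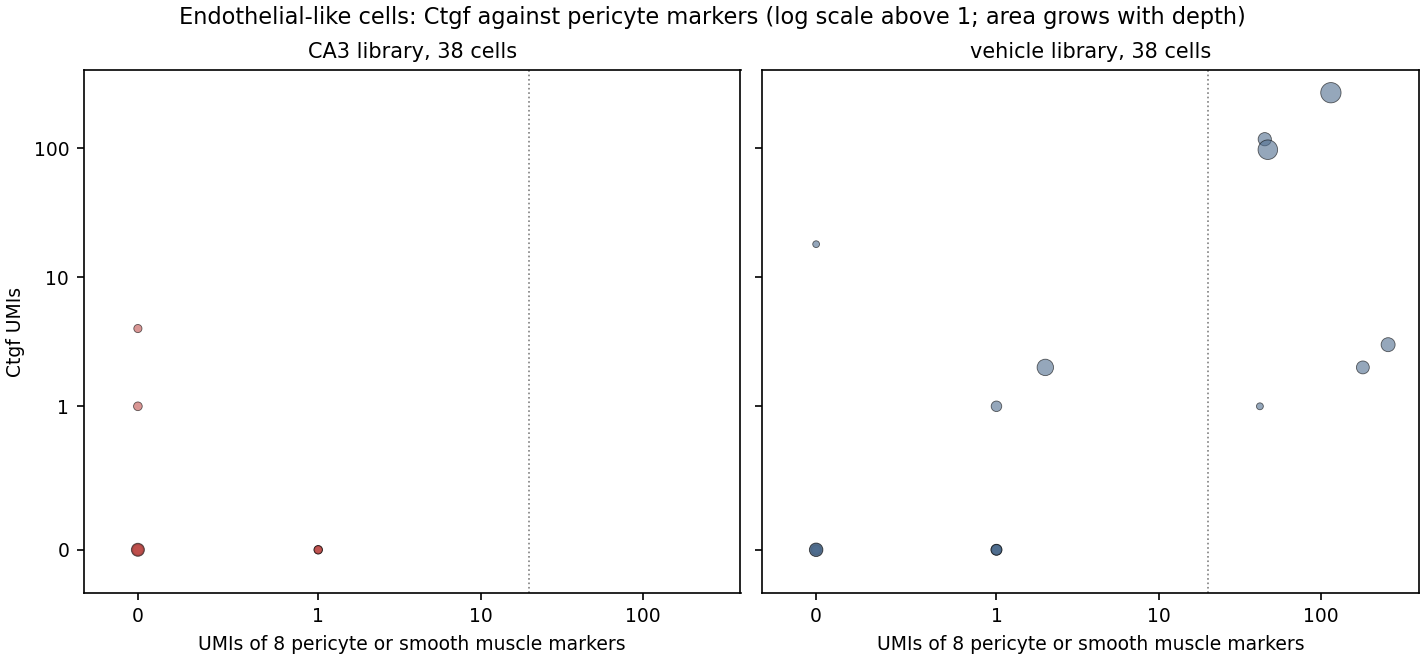
Ctgf UMIs (vertical axis) against summed UMIs of the 8 pericyte markers (horizontal axis), both on a log scale above 1, in each endothelial-like cell of the CA3 library (left, 38 cells) and the vehicle library (right, 38 cells), with point area growing with the total UMIs of the barcode and a dotted line at 20 pericyte UMIs. All CA3 cells lie left of the line with at most 4 Ctgf UMIs, and 6 vehicle cells lie right of it, 3 of them with 268, 117 and 97 Ctgf UMIs; many points at 0 overlap.

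Without those 6 barcodes the endothelial-like classes held 38 CA3 and 32 vehicle cells, and 6 of 7 measured members passed 1.5 times, 3 lower and 3 higher in CA3, where 14.3% of 5431 genes were lower and 13% higher. Amotl2 had 69.6 CPM in CA3 (19 UMIs) and 139.7 CPM in vehicle (43 UMIs), a ratio of 0.498 (0.274 to 0.873). Amotl1 had 168 CPM in CA3 (46 UMIs) and 305 CPM in vehicle (94 UMIs), a ratio of 0.551 (0.379 to 0.793). Igfbp3 went the other way, with 802 CPM in CA3 (219 UMIs) and 318 CPM in vehicle (98 UMIs), a ratio of 2.52 (1.98 to 3.23). Cyr61 had 234 CPM in CA3 and 129.9 CPM in vehicle (1.80, 1.2 to 2.75), Nuak2 95.2 and 42.2 CPM (2.25, 1.12 to 4.78), and Ctgf 5 UMIs in CA3 and 21 in vehicle (0.268, 0.079 to 0.731).

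Single cells decided some of these. With the cell richest in each gene also left out of each library, Ctgf had 1 UMI in CA3 and 3 in vehicle, Nuak2 stood at 1.13 (0.421 to 3.02) and Amotl1 at 0.761 (0.493 to 1.17). Amotl2 at 0.425 (0.216 to 0.799), Igfbp3 at 2.15 (1.58 to 2.94) and Cyr61 at 1.62 (1.01 to 2.64) stayed on the same side of 1. Both steps were chosen after the values were seen. With 1 library a group, differences between these classes cannot be told apart from differences between 2 cell suspensions.

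**Figure D5:**
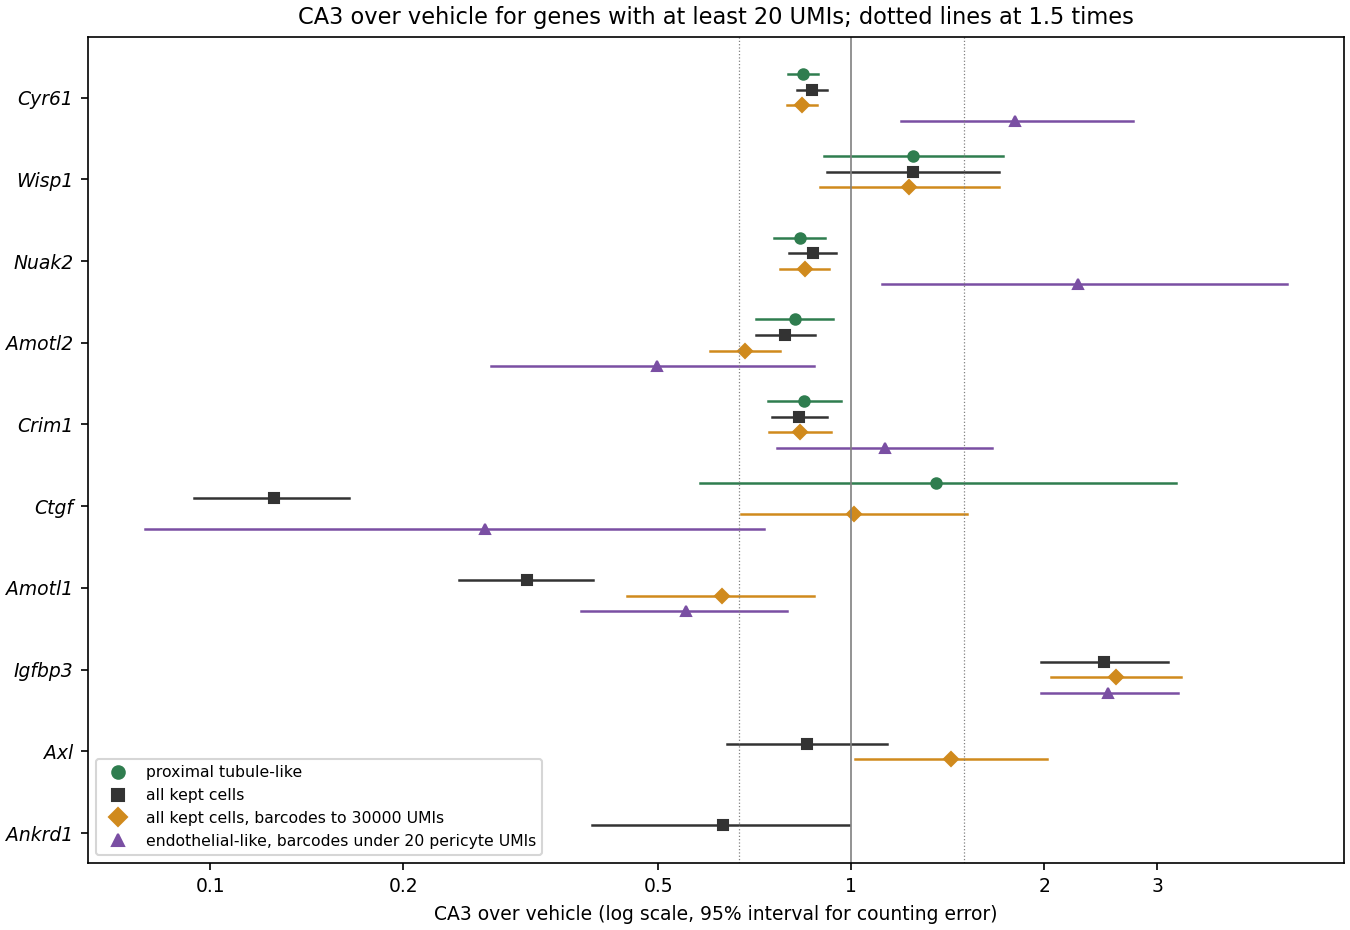
Ratio of CA3 to vehicle (horizontal axis, log scale) with 95% intervals for counting error, for each gene (vertical axis) with at least 20 UMIs, in proximal tubule-like cells, over all kept cells, over kept barcodes of up to 30000 UMIs, and in endothelial-like cells with fewer than 20 pericyte UMIs. Dotted lines mark 1.5 times in either direction; the 6 proximal tubule-like ratios lie between them, and the Ctgf ratio stands at 0.126 over all kept cells and at 1.01 without the deeper barcodes.

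A further 14 targets of YAP and TAZ were set beside the members in proximal tubule-like cells. Of these, 12 had at least 20 UMIs and 1 passed 1.5 times, near the 7.47% of all genes that did. Their median log2 ratio was 0.01, where that of the members was -0.25, and the difference between the lists was not tested. The one was Tgfb2, a secreted growth factor of the TGF-beta family, with 5 UMIs in CA3 and 23 in vehicle (ratio 0.252, 0.075 to 0.678). Dock5, an activator of Rac, had 19.0 CPM in CA3 and 15 CPM in vehicle (1.26, 1.01 to 1.58), and F3, tissue factor, had 14.1 CPM in CA3 and 17.8 CPM in vehicle (0.794, 0.629 to 1.0). Ptpn14, a phosphatase that restrains YAP, stood at 1.24 (0.723 to 2.13). Of 15 Hippo pathway components 13 were measured and 0 passed, a count from which nothing particular to them can be read beside 7.47% of all genes. Tead1 had 81.9 CPM in CA3 and 82.7 CPM in vehicle (0.990, 0.896 to 1.09) and Tead3 6.17 CPM in CA3 and 7.5 CPM in vehicle (0.822, 0.573 to 1.17), while Tead2 had 1 UMI, in vehicle, and Tead4 none. Over all endothelial-like cells 6 of 9 measured other targets were lower past 1.5 times in CA3, among them Nt5e, an ecto-nucleotidase, with 2 UMIs in CA3 and 70 in vehicle, where 18.9% of all genes were lower. Without the 6 barcodes rich in pericyte markers 0 were lower and 1 was higher of 4 measured, where 14.3% of genes were lower and 13% higher.

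In smaller classes the ratios of single members lay further from 1, on few UMIs. Cyr61 in distal convoluted tubule-like cells had 148 CPM in CA3 (28 UMIs, 19 of them in 1 cell) and 55.9 CPM in vehicle (17 UMIs), a ratio of 2.66 (1.4 to 5.17), where 27.2% of genes passed. Amotl2 in the Vcam1/C3-led cluster had 8 UMIs in CA3 and 25 in vehicle, a ratio of 0.302, where 30.8% of genes passed. The 20 vehicle Ankrd1 UMIs of thick ascending limb-like cells included 19 from 1 barcode, and CA3 had none.

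The genes whose levels most resembled those of each member were taken from 8887 genes by Pearson correlation of log2(CPM + 10) over 28 points, 14 classes in each of 2 libraries. The points share library and depth, so the values are descriptions. Igfbp3 was most like Mest (0.976), Lrrc32 (0.973) and Cldn5 (0.973). Amotl1 was most like Ehd2 (0.942), Tgfb1i1 (0.933) and Ltbp1 (0.932). Axl was most like Cxcl2 (0.918), Rnf150 (0.915) and Cd68 (0.910), and Amotl2 most like Fkbp9 (0.921), Fermt2 (0.903) and Zbtb20 (0.903). Ctgf was most like S1pr3 (0.862), Gdf10 (0.857) and the pericyte marker Des (0.853). Crim1 was most like Tgfbr3 (0.858), Cyr61 most like Ccser2 (0.812) and Nuak2 most like Frrs1 (0.761), which are looser likenesses.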

How the data were processed

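Cells of whole kidneys were profiled with 10x Chromium 3′ libraries, 1 per group. The authors deposited raw UMI counts per gene and barcode, made with Cell Ranger 3.0.1 on mm10 per the submitters' processing notes. Barcodes were kept from 500 genes up and with mitochondrial UMIs of 50% or less, and clustered with scanpy 1.11.5 (2000 variable genes without the members, 30 components, 15 neighbours, Leiden resolution 1), and cells outside the proximal tubule were clustered again. Clusters were named from 24 marker lists; those without a clear list keep their leading genes, and 1 cluster is not reported here. The marker threshold for the proximal tubule was set after the data were seen. The members and lists were chosen with earlier results of these data known. Class sums were compared as ratios with exact conditional binomial 95% intervals (scipy 1.17.1, numpy 2.4.6); levels have Poisson and shares Clopper-Pearson intervals, and a count of 0 was set against 3 UMIs. A ratio counts as past 1.5 times only with at least 20 UMIs over both libraries. Named genes were the members, up to 4 other targets by absolute log2 ratio, Yap1, Wwtr1 and the TEAD genes, up to 4 stress genes and the 3 genes most like a member. Gene models came from GENCODE vM21, and the scripts were tested on simulated data.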

Additional observations from a re-analysis of the deposited data

How the results depend on the processing

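No paired analysis was possible because each group had 1 library and the labels give no shared replicate. The alternatives without barcodes of more than 30000 UMIs, without the Pdk4-led and Osr2-led clusters and without the Hbb-bt-led and Igha-led clusters were chosen after seeing the data. The count of members past 1.5 times in proximal tubule-like cells was 0 as reported. It came to 1 under a stricter filter, from 1000 genes up and 25% mitochondrial UMIs or less (Ctgf, 1.53). It came to 2 with the members kept in clustering, when the class also took in Vcam1/C3-led cells. It was 1 without clusters holding at least 3 stress genes among their 10 leading genes (Wisp1, 1.65). That rule removed the Osr2-led cluster, with 4, and kept the Pdk4-led cluster, with 2. The count was also 1 without both the Pdk4-led and Osr2-led clusters (Wisp1, 2.11). The Cyr61 ratio there was 1.33 without those clusters and 0.817 to 0.875 otherwise. Over all kept cells the count of members was 4, 5 of 9 after thinning, 3 of 9 once the 3 cells richest in each gene were left out, and 2 without the deep barcodes, where the Ctgf ratio was 1.01 in place of 0.126. The Ctgf ratio was 0.609 with each cell thinned to 2000 UMIs and 0.511 once the 3 cells richest in Ctgf were left out of each library, and the Amotl1 ratio 0.494 without its 3. The Igfbp3 ratio, 2.48 as reported, was 3.88 under the stricter filter and 3.48 after thinning. Members with at least 50% of their UMIs in 10 cells numbered 5 of 10, 3 of 7 after thinning and 3 of 9 without the deep barcodes. Other targets past 1.5 times in proximal tubule-like cells numbered 1, 2 of 10 after thinning, and 0 without the 3 highest cells, at a minimum of 50 UMIs or without the deep barcodes. Members highest outside the proximal tubule numbered 7 to 9. The cause of these moves was not tested. Depth limits the small classes, where members rest on few UMIs.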
